A study of Mus musculus with 21 samples.

Results

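The genes described here are 36 protein-coding genes that lie around Notch3 on mouse chromosome 17. They were taken by name from a list covering about 31 to 35 Mb of the GRCm38 assembly, and all 36 were found among the 46517 Ensembl genes of the deposited counts by their symbols in the GENCODE vM21 annotation. Of these, 9 start below Notch3 on the map and 27 above it, from 22.7 kb to 2.89 Mb away, and Ddah2 starts just past the upper end of the interval at 35.06 Mb. The same interval holds 163 other annotated genes of the counts table besides Notch3. The question was whether genes next to Notch3 differ between genotypes together with the targeted gene.

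Bulk RNA-sequencing was performed on hearts of 4 control (Notch3+/+) and 3 Notch3-/- mice on the C57BL/6J background, aged 10 to 14 months. The Notch3-/- allele carries a lacZ insertion in Notch3, and the embryonic stem cell line and the number of backcrosses were not given in the sources used here. Each mouse had 3 technical libraries, whose counts were summed, giving 3091461, 4638786, 4208205 and 3046326 counts for control mice 1 to 4 and 3828763, 5167869 and 5086740 for Notch3-/- mice 1 to 3. The labels of control mice 1 and 2 begin with X, those of the other 5 mice with k, so the X label occurs in 1 genotype only. Markers of the tissue were checked first. The 8 ventricular cardiomyocyte genes summed to between 17884 and 27688 counts per 1e+06 (CPM) per mouse and the 3 atrial genes to between 4.84 and 19.8.

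Notch receptors are cleaved upon ligand binding, and the released intracellular part acts with the DNA-binding protein RBPJ on target genes. Notch3 is found mainly in vascular smooth muscle cells and pericytes. A gene altered in embryonic stem cells is inherited with the chromosome segment around it, and through backcrossing the segment is shortened only where recombination occurs, so neighbouring genes can carry alleles of the stem cell strain.

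Notch3 (ENSMUSG00000038146, minus strand, chr17:32120820-32166852) was the targeted gene. It had 57.3, 42.1, 57.6 and 61.8 CPM, normalized by the trimmed mean of M values (TMM), in control mice 1 to 4 and 6.01, 7.57 and 4.73 CPM in Notch3-/- mice 1 to 3. Every Notch3-/- mouse was below every control mouse, so the labels fit the targeted gene. The log2 fold change was -3.16 (SE 0.23, FDR 0.00173 by the quasi-likelihood test of edgeR, Benjamini-Hochberg-adjusted). In bulk tissue, fewer cells of a type and less RNA per cell cannot be told apart. Gm17276, an antisense gene whose exons share 488 bases with those of Notch3, had 9.88, 5.48, 6.82 and 5.34 CPM in control mice and 1.37, 1.05 and 0.378 CPM in Notch3-/- mice. These values do not overlap either, and the log2 fold change was -2.89 (SE 0.49, FDR 0.118 in edgeR, Benjamini-Hochberg-adjusted). Gm17276 was called in 3 of 15 fits, with DESeq2, with every gene of at least 1 count and without Notch3-/- mouse 3. Whether counting used the strand of the reads was not given, so reads of Notch3 and Gm17276 cannot be told apart where their exons overlap.

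Of the 36 flanking genes, 34 passed the expression filter, and 0 were called at an FDR under 0.05 and a fold change of at least 1.5 by edgeR with Benjamini-Hochberg adjustment. Over all 14324 genes tested 1 was called (0.00698%), which was Notch3. With DESeq2, Cbs and Pde9a were called, 2 of 35 flanking genes with an adjusted p (5.71%), beside 597 of 17393 genes (3.43%), 572 of them higher in Notch3-/- mice. At an unadjusted p under 0.05 in edgeR, 2 flanking genes were higher in Notch3-/- mice (Cbs and Pde9a, 5.88%) and 1 was lower (Ephx3, 2.94%), while 7.34% of all genes tested were higher and 3.05% lower at this threshold. For 2 flanking genes, Ephx3 and Pbx2, the genotypes had no overlap, both lower in Notch3-/- mice (5.88%, against 3.96% of all genes), and 0 were higher without overlap (against 4.57%). In the main edgeR fit these shares, of 0 to 2 genes each, are near those of all genes. Shares in other fits, some of them larger, are given below. The median log2 fold change of the 34 genes was -0.04, beside -0.00 for all genes tested, and 12 were higher (35.3%) and 22 lower, beside 7108 higher (49.6%) and 7216 lower of all genes. Their SEs ran from 0.12 to 1.43, with a median of 0.22.

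**Figure D1:**
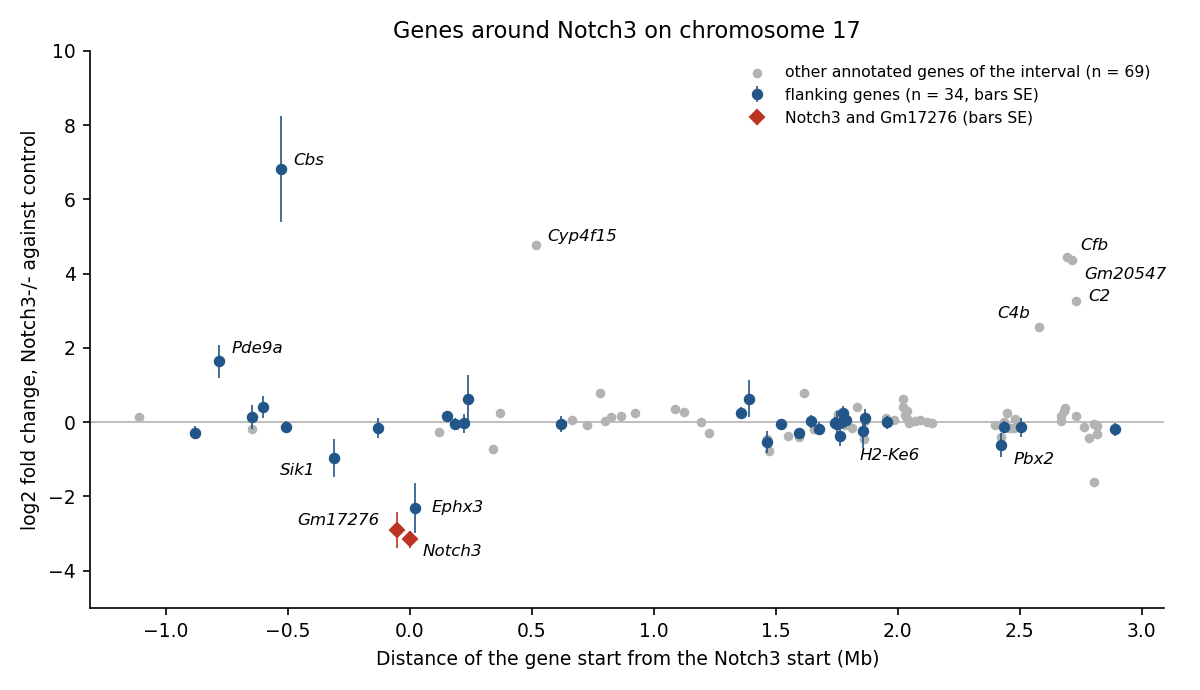
Log2 fold change of Notch3-/- against control mice by distance of each gene's start from the Notch3 start, with SE bars for the flanking genes (blue) and for Notch3 and Gm17276 (red), and 69 other annotated genes of the interval in grey. Most flanking genes sit near 0, Ephx3 lies next to Notch3 at -2.31, and Cbs and Pde9a are at 6.82 and 1.64.

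Ephx3, an epoxide hydrolase of fatty acid epoxides, was the flanking gene nearest to Notch3 (ENSMUSG00000037577, minus strand, chr17:32183770-32189549). Both genes are transcribed from the minus strand, and the end of Ephx3 is 16.9 kb upstream of the Notch3 start. Ephx3 was read by 8, 8, 16 and 16 counts in control mice 1 to 4 and by 1, 1 and 7 counts in Notch3-/- mice 1 to 3, or 2.63, 1.69, 3.76 and 5.34 CPM against 0.273, 0.210 and 1.32 CPM. All 3 Notch3-/- mice were below the lowest control mouse, but Notch3-/- mouse 3 was closer to control mouse 2 than to the other Notch3-/- mice. Ephx3 had a log2 fold change of -2.31 (SE 0.68, unadjusted p of 0.00680, FDR 0.258 in edgeR, Benjamini-Hochberg-adjusted), so the difference did not pass the threshold. With only 57 counts in all mice it rested on few reads, and counts were present in 12 of 12 control and 4 of 9 Notch3-/- libraries. Ephx3 passed the filter through its level in control mice, the group where it was high. The p, FDR and calls of Ephx3 are therefore descriptive. When Notch3-/- mouse 3 was left out, the log2 fold change of Ephx3 became -3.63 and the gene was called (FDR 0.0314 in edgeR, Benjamini-Hochberg-adjusted), 1 of 3 flanking genes called in that fit, with Cbs and Pde9a, beside 6.24% of all genes. The other fits without 1 mouse in which Ephx3 passed the filter gave -2.55 to -1.90, and it was not called in them. It was nearer to 0 still, at -0.53, with a hepatocyte score as a covariate. Ephx3 shares no exon bases with another annotated gene.

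The promoters of Notch3, Ephx3 and Cbs are shown with that of Akap8, the next flanking gene above Ephx3. They cover the 250 bases before the RefSeq start (GRCm38.p6), 5′ to 3′ on the gene's strand, and capitals mark the RBPJ core motif TGGGAA on either strand.
Notch3 (chr17:32166891-32167140, minus strand): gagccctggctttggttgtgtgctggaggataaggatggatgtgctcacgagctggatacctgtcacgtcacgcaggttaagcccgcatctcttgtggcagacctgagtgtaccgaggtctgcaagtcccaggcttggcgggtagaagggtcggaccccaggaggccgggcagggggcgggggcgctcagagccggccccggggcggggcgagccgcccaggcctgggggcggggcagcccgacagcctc
Ephx3 (chr17:32189471-32189720, minus strand): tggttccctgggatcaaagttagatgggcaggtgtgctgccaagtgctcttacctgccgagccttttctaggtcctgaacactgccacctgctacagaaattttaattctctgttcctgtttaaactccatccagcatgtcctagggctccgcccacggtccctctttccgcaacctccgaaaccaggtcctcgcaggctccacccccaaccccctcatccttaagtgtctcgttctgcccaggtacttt
Akap8 (chr17:32321239-32321488, minus strand): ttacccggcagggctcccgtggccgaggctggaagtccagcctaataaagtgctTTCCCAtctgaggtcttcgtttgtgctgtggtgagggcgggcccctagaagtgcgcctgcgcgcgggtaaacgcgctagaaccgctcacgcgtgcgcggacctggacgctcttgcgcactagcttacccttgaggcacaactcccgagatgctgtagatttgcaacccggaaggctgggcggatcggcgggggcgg
Cbs (chr17:31637206-31637455, minus strand): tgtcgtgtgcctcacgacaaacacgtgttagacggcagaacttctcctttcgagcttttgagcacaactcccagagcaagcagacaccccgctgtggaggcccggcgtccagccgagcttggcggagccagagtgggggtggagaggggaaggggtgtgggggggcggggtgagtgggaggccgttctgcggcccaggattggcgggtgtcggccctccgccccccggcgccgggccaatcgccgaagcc
The core motif was absent from this window in Notch3, Ephx3 and Cbs and occurred in Akap8. RefSeq promoters were matched for 32 of the 36 flanking genes, and not for Pde9a, Pknox1, Sik1 and Adamts10. Of these, 6 held the motif (18.8%), beside 21.6% of all 32851 promoters of the same length, and a match describes the letters only.

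The other genes next to Notch3 gave overlapping values. Akap8, a nuclear anchoring protein for protein kinase A 154 kb above Notch3, had 82.3, 89.8, 75.5 and 73.1 CPM in control mice and 94.8, 89.6 and 86.2 CPM in Notch3-/- mice, giving a log2 fold change of 0.17 (SE 0.13, FDR 0.692 in edgeR, Benjamini-Hochberg-adjusted). Akap8l, its paralog 184 kb away, had 82.3, 105.8, 89.2 and 109.2 CPM in control mice and 96.5, 83.7 and 101.5 CPM in Notch3-/- mice. Notch3-/- mice lay inside the control range for Akap8l, and the log2 fold change was -0.04 (SE 0.15). Below Notch3, Rrp1b, a nucleolar protein of ribosome biogenesis 131 kb away, had 11.5, 18.1, 13.6 and 12.7 CPM in control mice and 15.3, 9.25 and 13.6 CPM in Notch3-/- mice, a log2 fold change of -0.15 (SE 0.27). Hsf2bp, a factor of meiotic recombination whose start is 249 bases from that of Rrp1b on the other strand, did not pass the filter, with 0, 13, 3 and 2 counts in control mice and 0, 12 and 3 counts in Notch3-/- mice. Sik1, a salt-inducible kinase 311 kb away, had 24.4, 32.7, 107.3 and 49.1 CPM in control mice and 32.5, 37.9 and 12.3 CPM in Notch3-/- mice. The spread of Sik1 among control mice, with control mouse 3 at over 2 times any other mouse, was larger than the difference between genotypes, and the log2 fold change was -0.96 (SE 0.52, FDR 0.555 in edgeR, Benjamini-Hochberg-adjusted). When 1 mouse was left out, the value of Sik1 ran from -1.28 to -0.38.

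Cbs and Pde9a were the flanking genes with the highest log2 fold changes. Cbs, which encodes cystathionine beta-synthase of the transsulfuration pathway and is abundant in liver, lies 530 kb below Notch3 (ENSMUSG00000024039, minus strand, chr17:31608894-31637238). It had 0.659, 4.00, 0.235 and 1.34 CPM in control mice and 133, 445 and 1.32 CPM in Notch3-/- mice. Notch3-/- mice 1 and 2 were far above all control mice, and Notch3-/- mouse 3 was within the control range. The log2 fold change was 6.82 (SE 1.43, unadjusted p of 0.000807, FDR 0.133 in edgeR, Benjamini-Hochberg-adjusted). With 2, 19, 1 and 4 counts in control mice, Cbs passed the filter in part through Notch3-/- mice 1 and 2, where it was high. The p and calls of Cbs are therefore descriptive. Pde9a, a phosphodiesterase that hydrolyses cGMP, lies 781 kb below Notch3 (ENSMUSG00000041119, plus strand, chr17:31386210-31476310). It had 2.96, 6.32, 4.00 and 3.34 CPM in control mice and 15.3, 19.1 and 5.48 CPM in Notch3-/- mice, so again Notch3-/- mice 1 and 2 were above all control mice and mouse 3 was among them. The log2 fold change was 1.64 (SE 0.45, unadjusted p of 0.00466, FDR 0.223 in edgeR, Benjamini-Hochberg-adjusted).

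The same 2 mice had high levels of hepatocyte genes. The hepatocyte list holds 30 genes, 27 of them tested, all 27 higher at an unadjusted p under 0.05 and 12 without overlap between genotypes (beside 7.34% and 4.57% of all genes). The list was chosen with earlier results of these data known, and a gene near 0 in control mice could pass the filter through the Notch3-/- mice, so these counts describe the list and do not test it. Their summed level was 319, 463, 170 and 212 CPM in control mice and 10924, 21346.5 and 386 CPM in Notch3-/- mice. Alb, their most abundant gene per length, had 22.4, 81.1, 2.35 and 10.7 CPM in control mice and 1705, 1875 and 66.9 CPM in Notch3-/- mice. In control mice 1, 3 and 4, 4, 7 and 8 of the 30 genes were at 0, and in the other 4 mice 0 were. With the mean log2 CPM of this list as a covariate, the log2 fold change of Cbs was -1.69 (SE 0.59, unadjusted p of 0.0146), that of Pde9a -0.01 (SE 0.57, unadjusted p of 0.992) and that of Ephx3 -0.53 (SE 0.85, unadjusted p of 0.540). Cbs, lower, and Myo1f, higher at 1.55 (unadjusted p of 0.0222), were the 2 of 34 flanking genes with an unadjusted p under 0.05 in that fit (5.88%, beside 4.39% of all genes). Without Notch3-/- mice 1 and 2, a comparison chosen after seeing the data in which Notch3-/- mouse 3 is assumed to vary like the controls, that of Cbs was -0.30, that of Pde9a 0.37 and that of Ephx3 -1.30. In this comparison 0 of 35 flanking genes were called by edgeR, and 2 had an unadjusted p under 0.05, Myo1f higher and Sik1 lower (5.71%, beside 5.16% of all genes). The part of hepatocyte genes in the levels of Cbs and Pde9a was not tested beyond these values.

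**Figure D2:**
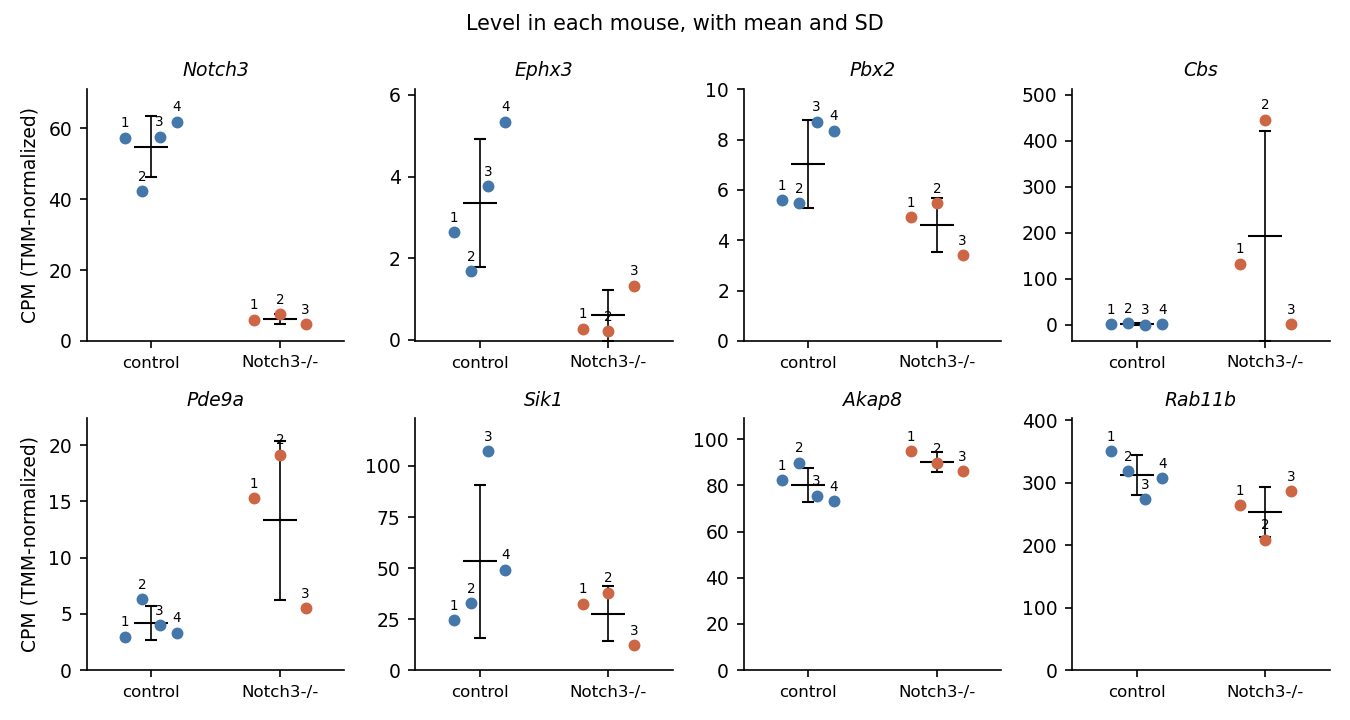
TMM-normalized CPM of Notch3 and 7 flanking genes in each mouse (numbered points), with the mean and SD of 4 control and 3 Notch3-/- mice. Notch3 and Ephx3 are lower in all Notch3-/- mice, Cbs and Pde9a are high in Notch3-/- mice 1 and 2 only, and Sik1, Akap8 and Rab11b overlap.

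The other flanking genes below Notch3 are Slc37a1, a transporter of phosphorylated glucose, Wdr4, a subunit of a tRNA methyltransferase, Pknox1, a homeodomain transcription factor, and U2af1, which recognizes the splice acceptor site. Their log2 fold changes were -0.28, 0.13, 0.41 and -0.12. Values of both genotypes overlapped for each of these 4 genes. Above Notch3 and within 1 Mb are also Wiz, a zinc finger partner of histone methyltransferases, Rasal3, a Ras GTPase-activating protein of blood cells, and Zfp871, a zinc finger gene. Their log2 fold changes were -0.03, 0.63 and -0.04. Rasal3 had 101 counts in all mice and an SE of 0.64, so its value was not separated from 0.

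A block of 17 flanking genes starts 1.36 to 1.96 Mb above Notch3. Kifc1, a kinesin of dividing cells, had 15 counts in all mice and was not tested. Of the 16 tested genes 6 were higher and 10 lower, with log2 fold changes from -0.53 for Zfp414 to 0.63 for Myo1f, and 0 had an unadjusted p under 0.05. Myo1f, a myosin of leukocytes, had 7.24, 6.74, 5.41 and 11.4 CPM in control mice and 3.55, 10.7 and 20.6 CPM in Notch3-/- mice. Notch3-/- mouse 3 was the highest and Notch3-/- mouse 1 the lowest of all 7 mice for this gene. When 1 mouse was left out, the log2 fold change of Myo1f ran from -0.08 to 1.04, and its sign turned without Notch3-/- mouse 3. Other log2 fold changes in the block were -0.01 for Daxx, a histone H3.3 chaperone, -0.04 for Zbtb22, -0.25 for Ring1, a Polycomb subunit with 77 counts and an SE of 0.44, 0.12 for Rxrb, a retinoid X receptor, and -0.00 for Brd2, a bromodomain protein. Pfdn6, a prefoldin subunit, and Wdr46, a nucleolar protein, start 317 bases apart on opposite strands and had log2 fold changes of -0.01 and 0.23. Rab11b and Vps52, also in the block, are described below. The remaining genes were Adamts10, a metalloproteinase of the extracellular matrix, at 0.24, Hnrnpm, a splicing factor, at -0.05, Kank3, an ankyrin repeat protein, at 0.02, Cd320, the transcobalamin receptor, at -0.18, and Rgl2, an exchange factor for Ral, at -0.37. Rgl2 was low in Notch3-/- mice 1 and 2 at 21.9 and 22.3 CPM, below the control range of 32.4 to 49.1 CPM, whereas Notch3-/- mouse 3 had 45.8 CPM. Zfp414 was also below all control mice in Notch3-/- mice 1 and 2, and within the control range in mouse 3. Of all 34 tested flanking genes, 6 were below all control mice in both Notch3-/- mice 1 and 2 (17.6%, beside 10.7% of all genes). Above all control mice in both were 3 (8.82%, beside 13.6% of all genes).

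Of the 4 flanking genes over 2 Mb from Notch3, all had negative log2 fold changes, from -0.61 to -0.13. Pbx2, a homeodomain transcription factor, had 5.60, 5.48, 8.70 and 8.35 CPM in control mice and 4.92, 5.47 and 3.40 CPM in Notch3-/- mice. The groups did not overlap, but control mouse 2 and Notch3-/- mouse 2 were nearly equal, with 26 counts each. The log2 fold change was -0.61 (SE 0.33, FDR 0.554 in edgeR, Benjamini-Hochberg-adjusted), and the exons of Pbx2 share 227 bases with those of Gpsm3. Tnxb, a tenascin of connective tissue, and Ddah2, which degrades methylated arginine, had log2 fold changes of -0.14 and -0.20.

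The highest levels per kb of exon were those of Rab11b, Agpat1 and Vps52, at 46.8, 42.7 and 40.5 CPM per kb over all mice, and the lowest was that of Kifc1 at 0.147 CPM per kb. For Rab11b, a GTPase of recycling endosomes, the counts gave 351, 318, 274 and 307 CPM in control mice and 265, 209 and 286 CPM in Notch3-/- mice. Notch3-/- mouse 3 was within the control range and the other Notch3-/- mice below it, and the log2 fold change was -0.30 (SE 0.14, FDR 0.490 in edgeR, Benjamini-Hochberg-adjusted). Agpat1, an acyltransferase of phospholipid synthesis, had 108, 146, 131 and 147 CPM in control mice and 119, 108 and 137 CPM in Notch3-/- mice, a log2 fold change of -0.13 (SE 0.15). Vps52, a subunit of the tether for vesicles returning to the Golgi, had 138, 167, 152 and 174 CPM in control mice and 169, 158 and 166 CPM in Notch3-/- mice, all inside the control range, with a log2 fold change of 0.06 (SE 0.12). Exons of these 3 genes also overlap other genes of the counts table, by 329 bases with Gm17251 for Rab11b, 101 with Egfl8 for Agpat1 and 156 with Rps18 for Vps52, where reads cannot be told apart.

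**Figure D3:**
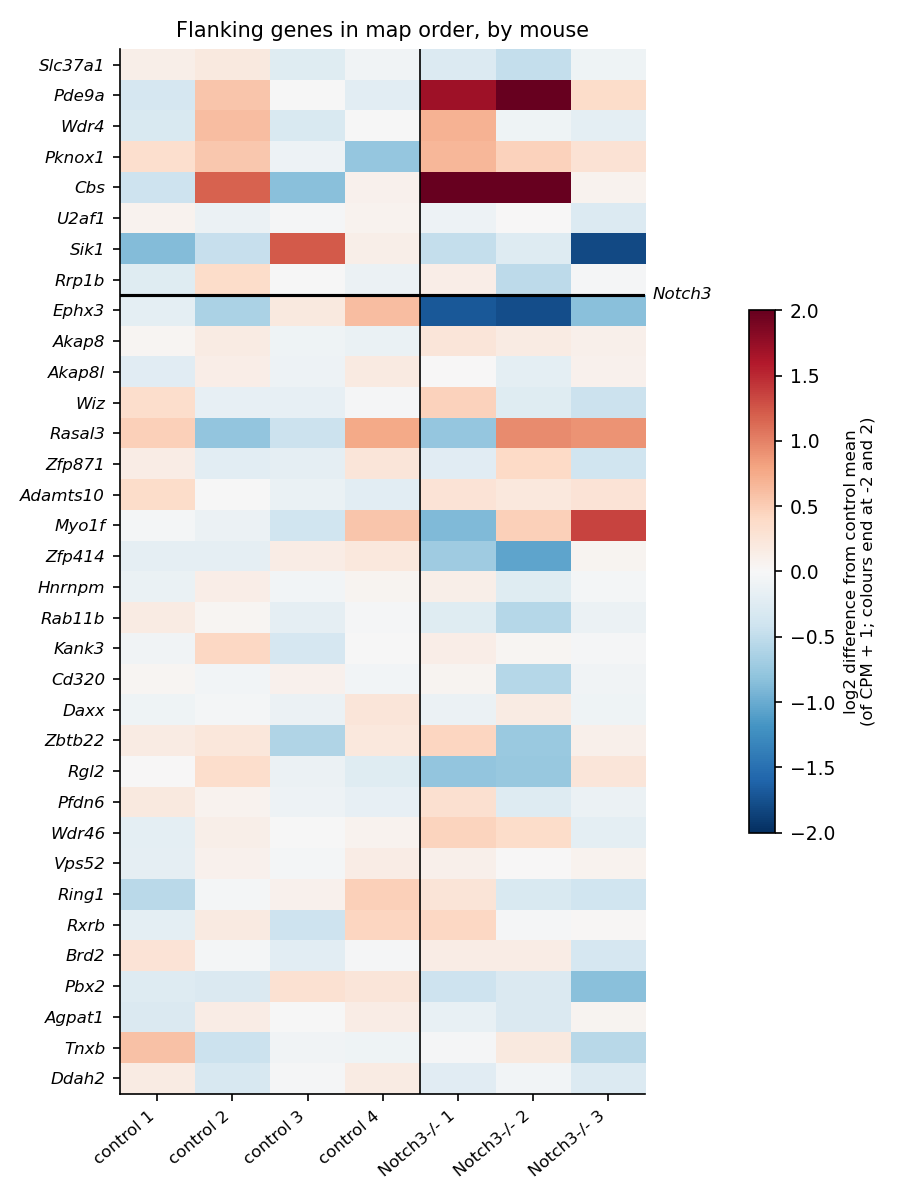
Log2 difference of each mouse from the control mean (of CPM + 1) for the 34 tested flanking genes in map order, with colours ending at -2 and 2 and a line where Notch3 lies. Cbs and Pde9a are high in Notch3-/- mice 1 and 2, and Ephx3 is low in all 3 Notch3-/- mice. In Notch3-/- mouse 1, 19 genes are above the control mean and 15 below it.

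Per mouse, the median log2 difference of the 34 flanking genes from the mean of control mice came to 0.08, -0.07 and -0.05 for Notch3-/- mice 1 to 3, and to -0.05, 0.05, -0.10 and 0.07 for control mice 1 to 4. The Notch3-/- mice lay within the range of the control mice except Notch3-/- mouse 1, which was above it by less than the SD of 0.083 between control mice.

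Among the 69 other tested genes of the interval, leaving out Notch3 and Gm17276, 5 were higher and 1 was lower at an unadjusted p under 0.05 (7.25% and 1.45%), and the median log2 fold change was 0.04. The 5 higher genes were Cfb, its read-through Gm20547, C2 and C4b, which encode complement proteins made largely in liver, and Cyp4f15, a cytochrome P450. Cfb had 11.9, 9.06, 14.6 and 14.03 CPM in control mice and 226, 552 and 37.3 CPM in Notch3-/- mice, a log2 fold change of 4.46 (FDR 0.118 in edgeR, Benjamini-Hochberg-adjusted). C2 had 2.96, 2.95, 2.35 and 3.67 CPM in control mice and 17.8, 58.5 and 9.27 CPM in Notch3-/- mice. C4b has a close paralog, C4a, between which counting can split reads, and Cfb and Gm20547 share exons. For Cfb, C2 and C4b Notch3-/- mouse 3 was also above all control mice, but below the other Notch3-/- mice. Cyp4f15 was at 16.1 and 81.4 CPM in Notch3-/- mice 1 and 2 and at 0.378 CPM in mouse 3, within the control range of 0.334 to 3.29 CPM. The summed hepatocyte list was high in Notch3-/- mice 1 and 2, while in mouse 3 it was below control mouse 2. The score used as the covariate was 2.88 in mouse 3, just above the 2.86 of control mouse 2, the highest control. With the hepatocyte covariate the log2 fold changes were 1.05 for Cfb and Gm20547, 1.16 for C2, 0.89 for C4b and -2.67 for Cyp4f15, with an unadjusted p under 0.05 in 0 of these 5 genes. Without Notch3-/- mice 1 and 2, the comparison chosen after seeing the data, 1 Notch3-/- mouse was left. The log2 fold changes there were 1.59 for Cfb, 1.58 for Gm20547, 1.64 for C2 and 1.24 for C4b. These genes were named for their low p in the main fit, so the values describe them and do not test them. Over the fits made, Cfb, Gm20547 and C4b were called in 8 of 20 and C2 in 6 of 18, with DESeq2 among them. The lower gene, H2-Ke6, a hydroxysteroid dehydrogenase, had 46.8, 37.3, 34.8 and 50.8 CPM in control mice and 32.5, 29.4 and 29.9 CPM in Notch3-/- mice. The groups did not overlap, and the log2 fold change was -0.47 (FDR 0.400 in edgeR, Benjamini-Hochberg-adjusted). Of the 69 genes, 5 were higher without overlap (7.25%, beside 4.57% of all genes) and 3 lower (4.35%, beside 3.96%). The nearest of them was Cyp4f17, lower at 339 kb from Notch3 (log2 fold change -0.73, SE 0.35, unadjusted p of 0.0662 in edgeR). Ephx3 and Cyp4f17 were the 2 of 26 genes within 1 Mb that were lower without overlap (7.69%), and 0 were higher.

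The share of genes with an unadjusted p under 0.05 did not fall steadily with distance from Notch3. Within 1 Mb, 3 of 26 genes were higher (11.5%, Cbs, Pde9a and Cyp4f15) and 1 lower (3.85%, Ephx3). At 1 to 2 Mb, 2 of 42 were higher and 1 lower, and at 2 to 5 Mb 16 of 141 were higher (11.3%) and 5 lower (3.55%). At 5 to 10, 10 to 20 and over 20 Mb, 6.30%, 5.26% and 5.45% were higher. The median log2 fold change by window ran from -0.03 to 0.04. Over all of chromosome 17 without Notch3 and Gm17276, the median was -0.02, within the range of the other 19 chromosomes of -0.03 to 0.04.

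**Figure D4:**
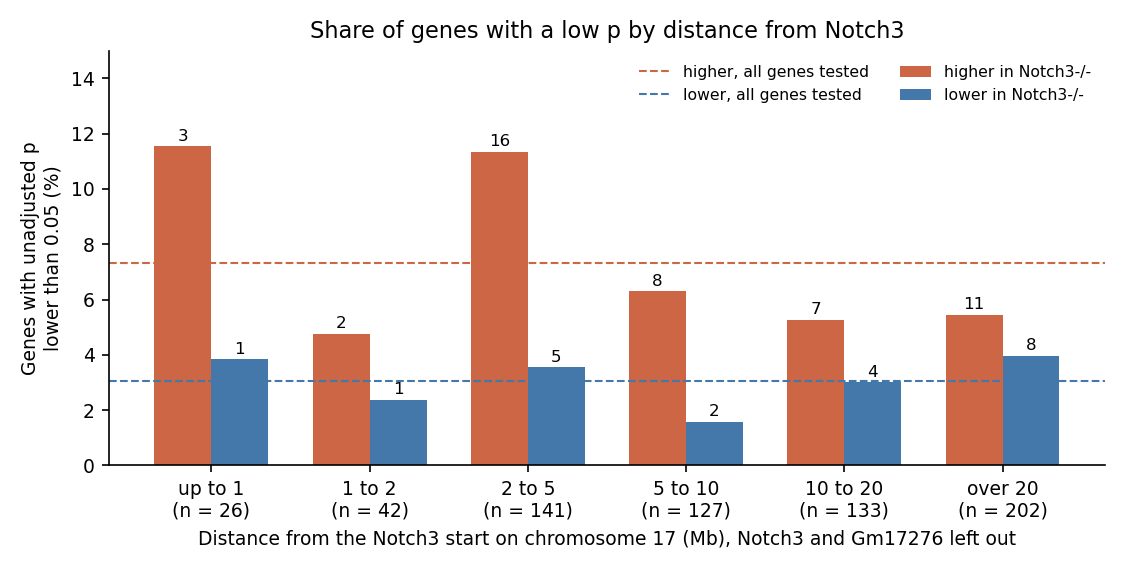
Percent of tested chromosome 17 genes with an unadjusted p under 0.05 in each window of distance from the Notch3 start, higher (orange) and lower (blue) in Notch3-/- mice, with the number of genes above each bar and dashed lines for all genes tested (7.34% and 3.05%). The windows up to 1 Mb and 2 to 5 Mb are above the dashed line for higher genes, and the lower genes stay near theirs.

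In the k-labelled mice alone, 2 control and 3 Notch3-/- mice, 7 of 34 flanking genes had an unadjusted p under 0.05 (20.6%, beside 6.38% of all genes). These were Cbs, Pde9a, Pknox1 and Adamts10, higher, and Ephx3, Sik1 and Pbx2, lower, and 0 were called by edgeR. The groups did not overlap for 9 flanking genes (26.5%, beside 23.5% of all genes). In these mice the log2 fold change of Ephx3 was -2.78. No Notch3-/- mouse had an X label.

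Nnt, on another chromosome, is partly deleted in C57BL/6J and was examined as a marker of strain. It had 747, 817, 985 and 1060 CPM in control mice and 1052, 800 and 963 CPM in Notch3-/- mice. The genotypes overlapped, with a log2 fold change of 0.06 (FDR 0.928 in edgeR, Benjamini-Hochberg-adjusted). Counts per gene do not show which exons were read, so the Nnt allele of these mice was not tested.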

How the data were processed

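The authors deposited whole-number counts of 51-base reads per Ensembl gene for 21 libraries from hearts, with no normalization. The submitters' processing notes name CASAVA and the build mm10. The aligner, the counting program, its strand setting and the handling of duplicate reads were not given in the sources used here. All 21 count columns were matched to samples, 0 were not, and 92 spike-in rows with 34 counts in all were left out. Genes were named by GENCODE vM21 (46005 of 46517 IDs found).

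Counts of the 3 technical libraries of a mouse were summed, so a mouse was 1 replicate. Libraries held 464390 to 2427783 counts. Genotypes were compared with edgeR 4.0.16 in R 4.3.3 (filterByExpr, TMM factors, glmQLFit, glmQLFTest) over 14324 genes, with Benjamini-Hochberg adjustment, and genes were called at an FDR under 0.05 and a fold change of at least 1.5. CPM are TMM-normalized. Levels by mouse are medians of log2(CPM + 1) differences from the control mean. P-values of the flanking genes were adjusted over all genes tested, and no test was made of the list itself.

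Full values were given for Notch3 and genes overlapping it, for flanking genes with an unadjusted p under 0.05 or with groups that do not overlap, for the 3 nearest on each side and the 3 with the highest level, and for Nnt. Values were given in part for up to 10 other interval genes with a p under 0.05. CPM were given for the leading genes of the hepatocyte, vascular smooth muscle and pericyte lists. The members and lists were chosen with earlier results of these data known. The script was tested on simulated data.

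Alternatives were DESeq2 1.42.0, RLE factors, every gene with at least 1 count, a filter of at least 10 counts per mouse, leaving out 1 mouse at a time, the k-labelled mice alone, a hepatocyte score (mean log2 CPM of 27 genes) as a covariate, limma-voom (limma 3.58.1) on 21 libraries with the mouse as a random effect, the same with the technical replicate number as a replicate block, each technical library alone and no fold threshold. Leaving out Notch3-/- mice 1 and 2 was added after seeing the data.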

Additional observations from a re-analysis of the deposited data

Results flagged for a closer look

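In the 4 control mice, 1 value stood far from the other 3 for 2 of 45 named genes, by the gap to the nearest value divided by the range. Zbtb22 was at 8.47 CPM in control mouse 3, while the other control mice were between 15.1 and 15.8 CPM (0.910 of the range). Cyp4f15 was at 3.29 CPM in control mouse 1, while the other control mice were between 0.334 and 0.706 CPM (0.874 of the range). Chance gives such a value in about 1 in 20 groups. The group of 3 Notch3-/- mice is too small for this measure, so the separation of Notch3-/- mouse 3 from mice 1 and 2 for Cbs was not examined by it.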

How the results depend on the processing

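Notch3 kept its direction in all 19 alternative fits (leave-one-out range -3.35 to -3.00). Its call was lost with the hepatocyte covariate (-3.40, FDR 0.0898 in edgeR, Benjamini-Hochberg-adjusted) and in the k-labelled mice (-3.29, FDR 0.206 in edgeR, Benjamini-Hochberg-adjusted), with a fold change about as large. The SE was 0.44 with the covariate and 0.26 in k-labelled mice, beside 0.23 in the main fit. The reason for the lost calls was not tested.

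Over all genes, 597 were called by DESeq2, 639 with every gene of at least 1 count, 65 by limma-voom on 21 libraries, 62 with the replicate block, 48, 39 and 77 on technical replicates 1, 2 and 3 alone, and 0 with the hepatocyte covariate or in k-labelled mice. Leaving out 1 mouse gave 1 to 936 called genes, the 936 without Notch3-/- mouse 3. DESeq2 called 2 flanking genes (5.71%, beside 3.43% of all genes). With every gene of at least 1 count, 1 was called (Cbs, 2.78%, beside 2.22%). Leaving out 1 mouse gave 0 to 3, the 3 without Notch3-/- mouse 3. The other fits called 0. However, Cbs, Pde9a and Ephx3 did not pass the filter in both limma-voom fits, with at least 10 counts in every mouse or on technical replicates 1 and 2. Cbs and Ephx3 did not pass it on technical replicate 3 either. Genes that did not pass could not be called in those fits. Fits without 1 control mouse also lacked Cbs or Ephx3 in part. Of 20 fits, Cbs was tested in 13, Pde9a in 15 and Ephx3 in 11.

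Flanking genes with an unadjusted p under 0.05 numbered 5 with every gene of at least 1 count (13.9%, beside 8.42% of all genes), 7 in k-labelled mice (20.6%, beside 6.38%) and 2 to 6 when 1 mouse was left out (6.06% to 17.6%, beside 6.51% to 16.3%). They numbered 0 with at least 10 counts in every mouse and 0 on technical replicate 1 (beside 10.5% and 6.61% of all genes), fits that lack Cbs, Pde9a and Ephx3. Groups without overlap numbered 1 with at least 10 counts in every mouse (3.45%, beside 8.57% of all genes), 0 on technical replicate 1 (beside 6.16%), 9 in k-labelled mice (26.5%, beside 23.5%), 12 without Notch3-/- mice 1 and 2 (34.3%, beside 41.1% of all genes) and 1 to 9 when 1 mouse was left out (3.03% to 26.5%, beside 12.1% to 26.0%). With fewer mice in a group an overlap is less likely by construction. Medians of the flanking genes were -0.18 on technical replicate 1, 0.0434 on technical replicate 3 and -0.13 to 0.0287 when 1 mouse was left out.

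With the hepatocyte covariate the sign turned for Cbs (-1.69), Pde9a (-0.00578) and Cyp4f15 (-2.67), and without Notch3-/- mice 1 and 2 for Cbs (-0.30) and Cyp4f15 (-1.57). The causes were not tested. Over the flanking genes compared, Cbs and Pde9a included, signs turned in 13 of 34 with the covariate (Zfp414 to 0.30 and Rgl2 to 0.20, for example), in 10 of 34 without Notch3-/- mice 1 and 2, in 12 of 27, 5 of 28 and 9 of 29 on technical replicates 1, 2 and 3, in 2 to 7 when 1 mouse was left out, in 4 in k-labelled mice, in 1 with at least 10 counts in every mouse and in 0 in the other fits. Ephx3 kept its sign in the 10 alternative fits that held it, from -3.63 without Notch3-/- mouse 3 to -0.53 with the covariate. Libraries of different mice with the same technical replicate number did not deviate together (median r -0.01 over 63 pairs, from -0.19 to 0.11), so the numbers are names, and 5 of 21 libraries correlated best with their own number.

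Groups held 3 and 4 mice, Ephx3 had 57 counts in all, and a gene that missed the threshold was not shown to be equal between genotypes. Counts per gene do not show which alleles were read, so the strain of origin of the chromosome segment was not tested.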

Other observations

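Other cell type lists were described by their counts. At an unadjusted p under 0.05, 2 of 4 tested vascular smooth muscle genes and 2 of 5 pericyte genes were lower in Notch3-/- mice, and 0 were higher, while 3.05% of all genes tested were lower and 7.34% higher at this threshold. Smtn, the most abundant vascular smooth muscle gene per length, had 473, 349, 396 and 424 CPM in control mice and 368, 326 and 360 CPM in Notch3-/- mice. Rgs5, the most abundant pericyte gene per length, had 540, 514, 511 and 576 CPM in control mice and 451, 417 and 397 CPM in Notch3-/- mice. Groups did not overlap for Rgs5 and overlapped for Smtn. Of 6 fibroblast genes 3 were higher and 1 was lower, and of 5 erythroid genes 2 were lower. For the 6 endothelial, 6 myeloid, 8 ventricular and 2 tested atrial genes, the 3 tested proliferation genes and the 1 tested lymphocyte gene the count was 0 in both directions.

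The sex of the mice was not given in the sources used here. Counts of Xist were 25, 1128, 2 and 3 for control mice 1 to 4, and 1729, 5 and 3 for Notch3-/- mice 1 to 3. Those of Ddx3y on the Y chromosome were 358, 4, 552 and 288 for control mice and 1, 636 and 705 for Notch3-/- mice. Control mouse 2 and Notch3-/- mouse 1 thus stand apart from the other 5 mice on these genes, with 1 such mouse in each genotype, and the flanking genes were not compared between these mice.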
